A study of Mus musculus with 14 samples.

Results

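The genes described here are the FGF receptors *Fgfr1*, *Fgfr2* and *Fgfr3*, the feedback inhibitors *Spry1*, *Spry2*, *Spry4* and *Dusp6*, and the ETS factors *Etv4* and *Etv5*, followed over a SOX9 time course in mouse epidermal stem cells (EpdSCs). The 9 genes were chosen by symbol and each had a row among the 54332 genes of the expression table. Of the 9, 8 reached a mean of 1 TPM (a share of all transcripts in a library, allowing for transcript length) over the libraries and were tested among 13110 genes; *Spry4* did not and was not tested.

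FGF ligands bind receptor tyrosine kinases that signal through the adaptor FRS2 and RAS to RAF, MEK and ERK. Active ERK switches on its own inhibitors, among them the Sprouty proteins, which act upstream on RAS activation, and DUSP6, a cytoplasmic phosphatase that removes phosphate from ERK, and it raises the PEA3-group ETS factors ETV4 and ETV5, so that RNA of these genes is widely read as an output of the pathway. Epithelial cells make a splice form of FGFR2 that answers to ligands from the dermis such as FGF7 and FGF10, and FGFR2 signalling is known for its part in keratinocytes, the skin barrier and hair follicles. TPM sums the splice forms of a gene, so it does not tell which form of FGFR2 was made.

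The libraries were made from sorted EpdSCs of back skin of CD1 mice with the genotype K14rtTA; TRE-myc-Sox9, in which the *Krt14* promoter drives the doxycycline-dependent activator and doxycycline turns on a myc-tagged *Sox9*. D0 is day 21 after birth, with the transgenes present and not induced, and W1, W2 and W6 followed 1, 2 and 6 weeks of doxycycline, at 28, 35 and 63 days of age. W12 came from neonatal skin grafted onto immunocompromised Nude mice and induced for 12 weeks, so that graft, host and time cannot be told apart there, and age cannot be told apart from time after induction at any timepoint, since RNA of age-matched mice without SOX9 was not analysed here. Every group was sorted as negative for CD31, CD45, CD117 and CD140a, high for CD49f, negative for CD34 and high for Ly6A, and had 2 biological replicates per the labels. In sorted bulk RNA, fewer cells with a transcript and less RNA per cell cannot be told apart.

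The transgene stood at 89.6 and 45.6 TPM at D0 and between 606 and 3414 TPM later. All 6 basal epidermal markers were above 1 TPM in every library. Some libraries went against their labels or stood apart. D0 replicate 2, labelled male, held 4.61 TPM of *Xist*, against 0.0278 TPM of *Ddx3y* from the Y chromosome, and both W12 libraries had *Xist* (5.51 and 3.50 TPM) beside *Ddx3y* (11.0 and 12.9 TPM), where the hosts were female. The 4 endothelial markers summed to 32.5 and 75.6 TPM at W12, all 4 above 1 TPM in both libraries, and to at most 1.42 TPM in the other 8 libraries, where *Cdh5* was at 0 in both libraries of D0, W1 and W2. The immediate-early genes, which respond within minutes to growth factors and also to tissue handling, summed to 25641 and 42261 TPM at D0 and to between 3477 and 9412 TPM later, and 10 of 10 were lower at W1, W6 and W12 and 9 at W2 (limma), where 4.10%, 14.1%, 25.1% and 6.64% of all genes were lower. The 6 immune markers summed to between 102 and 125 TPM at W12, of which *Cd74* alone gave 102.1 and 124.1, and to at most 27.1 TPM before; *Cd207*, *Cd3e* and *Trdc* were lower in both W12 libraries than in both at D0, each at under 0.5 TPM. The 6 fibroblast markers summed to 52.2 TPM in W6 replicate 2 and to at most 28.1 TPM in the others, of which *Dcn* alone gave 51.2 and, at W12, 13.2 and 27.2 TPM, with *Pdgfra*, the gene of CD140a, at most 0.188 TPM and *Lum* at 0 in both W12 libraries. The 5 melanocyte markers summed to 1.18 and 4.86 TPM at D0 and to 10.6 and 11.8 at W12, where 2 of 3 tested were higher (17.9% of all genes). Of the 3, *Tyrp1* reached the filter (mean 1.12 TPM) through its W6 and W12 values (means 1.40 and 2.88 TPM). Of 6 basal markers, 5 were lower at W6 (14.1% of all genes), and 3 were lower and 1 higher at W12 (25.1% and 17.9%). Of 6 suprabasal markers, 2 were higher at W1 (5.79% of all genes), 1 at W2 (9.06%) and 3 at W6 (18.3%), and 3 were higher and 1 lower at W12. Of 5 hair follicle markers, 1 was higher at W1, 2 at W2 and 1 at W6, and 1 was higher and 1 lower at W12. Among them *Cd34*, whose protein the sort excluded, had 0.0614 and 0.383 TPM at D0, 2.66 and 5.04 at W6, and 16.5 and 32.0 at W12. *Nfatc1* had 20.7 and 28.3 TPM at D0, 61.8 and 61.2 at W1, 71.8 and 62.7 at W2, and 12.3 and 13.5 at W12. The part of these differences in the results was not tested. Of 18 changes against D0 called in the genes described here, 16 were still called without D0 replicate 2, and those lost were *Fgfr3* at W2 and *Spry2* at W12.

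Promoters are shown for genes that changed in opposite directions or at different times, so that the sequence before the transcription start can be set beside the expression values. RefSeq windows on GRCm38.p6 were matched by symbol for 6 of the 9 genes, in 8 windows of 300 bases, and the 250 bases before the start are printed 5′ to 3′ on the strand of the gene. They are *Dusp6* (chr10:99262981-99263230, plus strand), 1 of 2 start windows of *Etv5* (chr16:22438369-22438618, minus strand), *Fgfr2* (chr7:130266809-130267058, minus strand) and 1 of 2 start windows of *Fgfr3* (chr5:33721474-33721723, plus strand). Capitals mark TGAATG on either strand, the core of the octamers bound by capicua, a repressor that ERK signalling inactivates, and were chosen after the sequences were seen.
Dusp6: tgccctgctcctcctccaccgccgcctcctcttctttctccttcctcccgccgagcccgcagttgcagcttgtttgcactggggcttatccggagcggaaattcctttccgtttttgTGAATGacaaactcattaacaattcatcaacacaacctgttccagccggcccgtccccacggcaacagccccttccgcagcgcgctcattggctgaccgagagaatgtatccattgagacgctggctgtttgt
Etv5: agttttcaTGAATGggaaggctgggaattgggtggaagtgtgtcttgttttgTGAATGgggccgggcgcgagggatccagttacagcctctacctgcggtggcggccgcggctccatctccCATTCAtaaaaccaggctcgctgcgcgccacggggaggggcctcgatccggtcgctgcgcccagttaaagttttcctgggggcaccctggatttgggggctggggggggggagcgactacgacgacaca
Fgfr2: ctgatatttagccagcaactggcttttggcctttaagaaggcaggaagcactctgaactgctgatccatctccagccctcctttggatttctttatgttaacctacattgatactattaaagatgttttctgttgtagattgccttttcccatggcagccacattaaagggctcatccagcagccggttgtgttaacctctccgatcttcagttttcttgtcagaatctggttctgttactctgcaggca
Fgfr3: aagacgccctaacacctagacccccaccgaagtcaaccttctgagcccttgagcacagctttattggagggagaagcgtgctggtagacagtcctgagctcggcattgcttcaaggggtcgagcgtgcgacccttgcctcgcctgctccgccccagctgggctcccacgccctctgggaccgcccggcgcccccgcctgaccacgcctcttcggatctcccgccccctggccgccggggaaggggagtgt

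TGAATG was found once in the *Dusp6* window, at position −133 from the start, and 3 times in the *Etv5* window, at −242, −198 and −129. At least 1 copy was present in 12.7% of 32851 promoter windows of the same length, and at least 3 copies in 0.170%. The other 6 windows of these genes did not hold it. Among them was the second *Etv5* window (chr16:22439571-22439820), which takes in the annotated 5′ end of the gene. The printed *Etv5* window lies within the annotated gene. As TGAATG was chosen after the sequences were seen, its shares are a description and not a test. The full octamers TGAATGAA and TGAATGGA, in 2.47% of windows, the ETS sequence CCGGAAG, in 8.86%, and the AP-1 sequence TGAGTCA, in 5.20%, were in none of the 8 windows. The SOX sequences ACAAAG and ACAATG, in 28.6% of windows, were in those of *Etv5* and *Spry2*. All were searched on both strands, and TGAATG overlaps the octamers. *Fgfr2* had a GC content of 44.0% in its printed bases, *Dusp6* 56.4%, *Etv5* 62.0% and *Fgfr3* 66.8%.

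The receptors moved apart. *Fgfr1*, the receptor better known from mesenchymal cells, was low at D0 and rose by W1, whereas *Fgfr2* and *Fgfr3*, the epithelial receptors here at the highest levels, fell. *Fgfr1* lies at chr8:25513654-25575718 (plus strand, GENCODE M21 on GRCm38). It stood at 6.03 and 8.13 TPM at D0, 57.3 and 69.5 at W1, 56.4 and 57.3 at W2, 30.6 and 29.0 at W6, and 9.90 and 18.03 at W12. Both libraries of each induced timepoint were above both D0 libraries, and no timepoint overlapped the next one in the order of means. The lower W1 library (57.32 TPM) and the higher W2 library (57.29 TPM) were almost equal. The means were 7.08 ± 1.48 at D0 and 63.4 ± 8.62 at W1 (SD, n = 2), 8.96-fold higher. On the log2(TPM + 1) scale the rise was 3.001 ± 0.26 (SE) at W1 (limma, adjusted *P* = 0.000381), 2.85 ± 0.26 at W2 (adjusted *P* = 0.000363) and 1.94 ± 0.26 at W6 (adjusted *P* = 0.00107). These calls held in all 13 alternatives run for each. From W2 to W6 *Fgfr1* fell by 0.91 (adjusted *P* = 0.0455), a call lost in 7 of 13 alternatives, among them leaving out any of the 4 libraries (adjusted *P* = 0.0812 to 0.193). From W6 to W12 it fell by 1.10 (adjusted *P* = 0.0202), lost in 4 of 12, among them without W6 replicate 1 (0.0762) or W12 replicate 1 (0.119). At W12 it was still 0.85 ± 0.26 above D0 (adjusted *P* = 0.0274), a call lost without D0 replicate 1 (adjusted *P* = 0.113) or W12 replicate 2 (0.173), with all genes above 0 TPM (0.091) or with only the 4 libraries compared (0.109). W1 and W2 did not differ by the test (adjusted *P* = 0.846). *Gm16159*, annotated on the other strand within *Fgfr1*, reached at most 0.197 TPM, and whether counting used strand was not given in the sources used here.

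**Figure D1:**
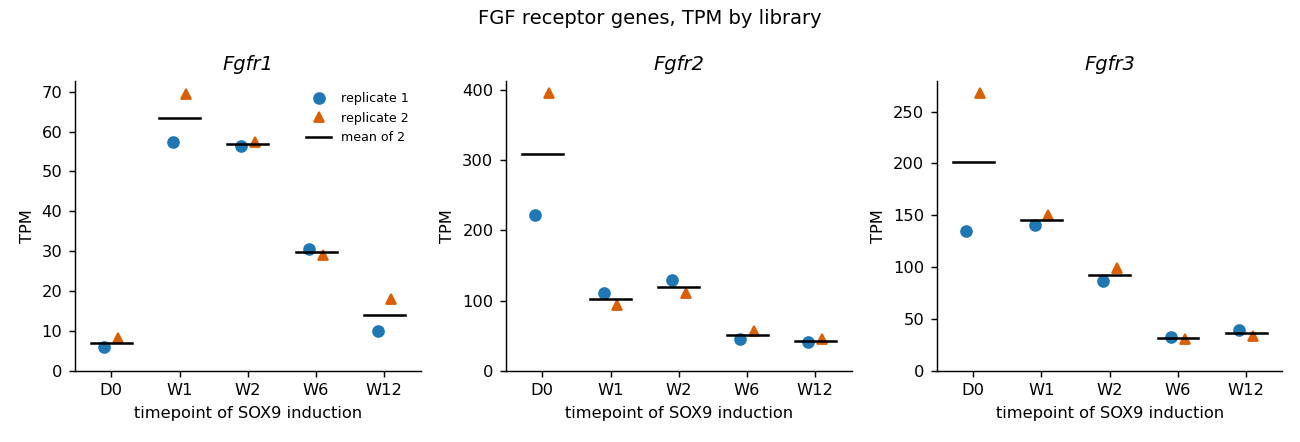
TPM of *Fgfr1*, *Fgfr2* and *Fgfr3* (linear axes from 0) in each of 10 libraries by timepoint of SOX9 induction, with circles for replicate 1, triangles for replicate 2 and a line at the mean of 2. *Fgfr1* is lowest at D0 and highest at W1 (mean 63.4 TPM), whereas *Fgfr2* and *Fgfr3* are highest at D0 (means 308 and 201 TPM), with the D0 replicates far apart.

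*Fgfr2* fell from its D0 level. It stood at 222 and 395 TPM at D0, 111 and 93.4 at W1, 129.6 and 110.3 at W2, 44.7 and 56.9 at W6, and 40.5 and 44.8 at W12. Every later library was below both D0 libraries, and the D0 libraries differed most from each other. The mean at D0 (308 ± 122 TPM) was 3.02-fold that at W1 (102 ± 12.5) and 7.23-fold that at W12 (42.7 ± 3.04 SD, n = 2). *Fgfr2* fell by 1.53 on the log2 scale at W1 (SE 0.26, adjusted *P* = 0.00767), by 2.53 at W6 (adjusted *P* = 0.000334) and by 2.77 at W12 (adjusted *P* = 0.000106). The falls at W6 and W12 were called in every alternative run (13 and 12), that at W1 was lost without W1 replicate 2 (adjusted *P* = 0.0768), and the fall of 1.30 at W2 (adjusted *P* = 0.0119) was lost without W2 replicate 2 (adjusted *P* = 0.096). Both calls were also lost with all genes above 0 TPM (0.0538 at W1 and 0.0678 at W2) and with only the 4 libraries compared (0.0926 and 0.0874). From W2 to W6 *Fgfr2* fell by 1.23 (adjusted *P* = 0.0188), a call lost in 4 of 13 alternatives, among them without W2 replicate 1 (0.134), W2 replicate 2 (0.0813) or W6 replicate 1 (0.0547). W1 against W2 (adjusted *P* = 0.734) and W6 against W12 (adjusted *P* = 0.562) were not called, and the replicates of each of these pairs overlapped. The annotated span of *Fgfr2* (chr7:130162451-133123350, minus strand) covers 2960900 bases and overlaps 69 other gene models. The printed promoter window (chr7:130266809-130267058) lies inside that span, far from its 5′ end. Whether reads of overlapping transcripts were shared was not tested.

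*Fgfr3* (chr5:33721674-33737068, plus strand), known in skin for activating changes in benign epidermal growths, was called lower from W2 on. It had 135 and 268 TPM at D0, 141 and 150.0 at W1, 86.5 and 98.9 at W2, 32.3 and 30.7 at W6, and 39.5 and 33.2 at W12. The W1 libraries lay between those of D0, and every library from W2 on was below both. The mean at D0 (201 ± 93.9 TPM, SD, n = 2) was 6.38-fold that at W6 (31.5 ± 1.157). The change was −0.38 ± 0.27 at W1 (adjusted *P* = 0.421), and *Fgfr3* fell by 1.03 at W2 (adjusted *P* = 0.0365), 2.55 at W6 (adjusted *P* = 0.000425) and 2.36 at W12 (adjusted *P* = 0.00034). The W2 call was lost without D0 replicate 2 (adjusted *P* = 0.0751), without W2 replicate 1 (0.182) or 2 (0.129), without the grafted W12 libraries (0.0622), with all genes above 0 TPM (0.151) and with only the 4 libraries compared (0.159). The step from W2 to W6 was −1.52 (adjusted *P* = 0.0114), lost in 3 of 13 alternatives, among them without W2 replicate 1 (0.0713) or 2 (0.0816), and W6 and W12 did not differ by the test (adjusted *P* = 0.664).

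Shares of the FGF receptor RNA within each library are given as a description. *Fgfr1* made up 1.66% and 1.21% of the summed TPM of *Fgfr1* to *Fgfr4* at D0, 18.5% and 22.2% at W1, 20.7% and 21.5% at W2, 28.4% and 24.9% at W6, and 11.0% and 18.8% at W12. Every later library had a higher share than both at D0, and W12 replicate 1 had the lowest of the later shares. *Fgfr2* was 61.2% and 58.9% of the sum at D0 and between 29.9% and 48.7% later. The ratio of *Fgfr2* to *Fgfr1* was 36.8 and 48.6 at D0 and from 1.34 to 4.09 later. The sum fell from 363 and 671 TPM at D0 to 309 and 313 at W1 and to 89.9 and 96.1 at W12. A ratio of 2 genes within a library does not depend on the scale of that library. *Fgfr4* did not exceed 0.130 TPM. No test was run on the shares or ratios, for which an exact permutation test of 2 libraries against 2 could not give a two-sided *P* below 0.333.

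**Figure D2:**
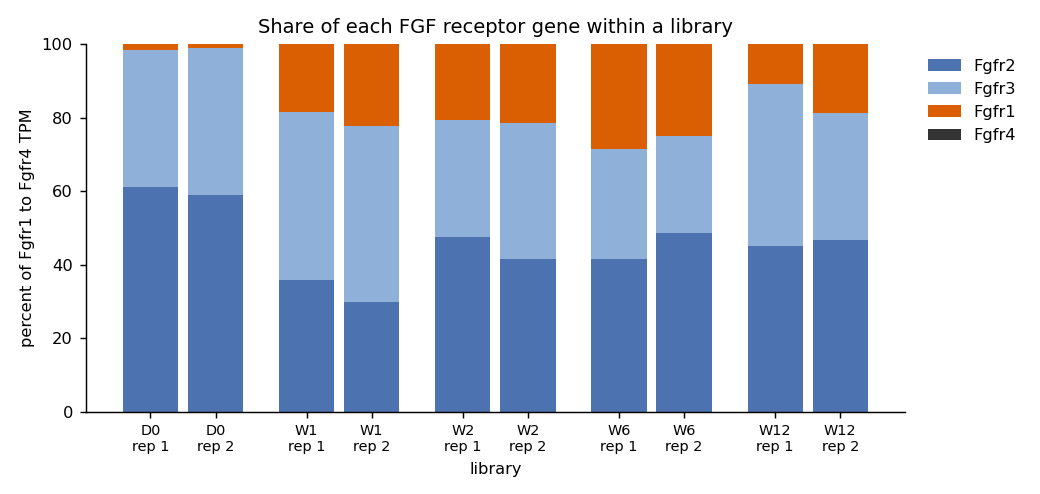
Share (percent, stacked bars) of the summed TPM of *Fgfr1* to *Fgfr4* taken by each gene in each of 10 libraries, in order of timepoint. *Fgfr1* is 1.66% and 1.21% at D0 and at least 11.0% in every later library; *Fgfr4* is too low to be seen.

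*Spry1* and *Spry2* were lowest at W12, and *Spry4*, under 1 TPM throughout, was not tested. *Spry1* (chr3:37639947-37644598, plus strand) was the most abundant Sprouty gene by TPM. It stood at 38.8 and 114 TPM at D0, 38.2 and 34.9 at W1, 29.4 and 34.8 at W2, 29.8 and 29.9 at W6, and 10.3 and 20.2 at W12. The D0 libraries were far apart, and both W12 libraries were below all others. *Spry1* fell by 2.13 ± 0.45 at W12 against D0 (adjusted *P* = 0.00594), a mean 5.02-fold lower, a call lost without W12 replicate 1 (adjusted *P* = 0.0552). The changes at W1 (−0.85), W2 (−1.04) and W6 (−1.14) were not called (adjusted *P* = 0.274, 0.155 and 0.0844). Without D0 replicate 1, which left the higher D0 library alone in its group, these changes were −1.62, −1.80 and −1.90. Without D0 replicate 2 they were −0.0859, −0.269 and −0.369, so their size depended on the D0 library kept. *Gm42922*, annotated on the other strand at *Spry1*, reached 1.19 TPM.

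*Spry2* (chr14:105891947-105896819, minus strand) was lower throughout, at 2.69 and 3.73 TPM at D0, 4.02 and 3.66 at W1, 2.54 and 2.69 at W2, 2.15 and 1.73 at W6, and 1.60 and 1.14 at W12. Both W12 libraries were below the other 8. It fell by 0.83 ± 0.22 at W12 (adjusted *P* = 0.0162), with a mean 2.35-fold below D0, and the call was lost without D0 replicate 2 (adjusted *P* = 0.0931) or W12 replicate 2 (0.09) and with only the 4 libraries compared (0.0562). Against W1 it fell by 0.72 at W6 (adjusted *P* = 0.0463, lost without W1 replicate 1 or 2 or W6 replicate 2, at 0.188, 0.144 and 0.125, and at 0.0688 with the replicate block) and by 1.04 at W12 (adjusted *P* = 0.00551). *Spry4* ranged from 0.0291 to 0.0939 TPM at D0, W1 and W2, and was 0.634 and 0.191 at W6 and 0.342 and 0.401 at W12. These late values were above all the earlier ones, though all were under 1 TPM. In a fit of all genes with a TPM above 0, *Spry4* was not called at W6 (adjusted *P* = 0.185) or W12 (adjusted *P* = 0.201).

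*Dusp6* (chr10:99263231-99267489, plus strand), the ERK phosphatase, ended higher than it began. It stood at 62.2 and 90.2 TPM at D0, 52.5 and 34.8 at W1, 87.1 and 66.3 at W2, 129.5 and 114 at W6, and 121 and 179 at W12. All 4 libraries of W6 and W12 were above the other 6. The rise at W12 against D0 was 0.97 ± 0.28 (adjusted *P* = 0.0218), with a mean 1.97-fold higher, and was lost without D0 replicate 1 (adjusted *P* = 0.103) or W12 replicate 2 (0.149), with all genes above 0 TPM (0.0842) or with only the 4 libraries compared (0.0555). The changes at W1 (−0.80, adjusted *P* = 0.113), W2 (0.02, adjusted *P* = 0.974) and W6 (0.69, adjusted *P* = 0.0876) against D0 were not called. Against W1 *Dusp6* rose by 1.49 at W6 (adjusted *P* = 0.00832, and 0.0656 without W1 replicate 2) and by 1.76 at W12 (adjusted *P* = 0.00131). The ratio of *Dusp6* to *Spry1* within a library was 1.60 and 0.789 at D0 and 11.8 and 8.86 at W12.

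*Etv4* (chr11:101769742-101785371, minus strand) rose to a peak at W6, the widest range of the ETS pair. It stood at 2.97 and 3.71 TPM at D0, 5.58 and 10.8 at W1, 11.95 and 20.97 at W2, 67.3 and 39.9 at W6, and 13.5 and 15.8 at W12. Both W6 libraries were above all others, and every later library was above both at D0. The mean at W6 (53.6 ± 19.4 TPM, SD, n = 2) was 16.0-fold that at D0 (3.34 ± 0.522). *Etv4* rose by 1.96 ± 0.36 at W2 (adjusted *P* = 0.00875), 3.61 at W6 (adjusted *P* = 0.000315) and 1.85 at W12 (adjusted *P* = 0.00429), whereas the 1.03 at W1 was not called (adjusted *P* = 0.118). The W6 and W12 calls held in all alternatives run (13 and 12), and the W2 call was lost without W2 replicate 2 (adjusted *P* = 0.0773) and with all genes above 0 TPM (0.0569). From W2 to W6 it rose by 1.65 (adjusted *P* = 0.0223), a call lost in 5 of 13 alternatives, among them without W2 replicate 1 (0.159), W2 replicate 2 (0.0502) or W6 replicate 1 (0.0664), and with only the 4 libraries (0.064). From W6 to W12 it fell by 1.76 (adjusted *P* = 0.0129), lost in 3 of 12, without W6 replicate 1 (0.0671) or either W12 library (0.0976 and 0.0546).

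*Etv5* (chr16:22381309-22439719, minus strand) peaked at W6 too but was not called at the other timepoints. It stood at 10.1 and 19.4 TPM at D0, 9.29 and 10.6 at W1, 10.9 and 16.2 at W2, 32.0 and 29.2 at W6, and 7.19 and 13.0 at W12. Only the W6 libraries were clear of the others, which overlapped. It rose by 1.07 ± 0.34 at W6 against D0 (adjusted *P* = 0.043), a mean 2.08-fold higher, and fell by 1.56 from W6 to W12 (adjusted *P* = 0.0164), the latter lost without W6 replicate 1 (0.0683) or W12 replicate 1 (0.127) and with all genes above 0 TPM (0.0578). The W6 call was lost without D0 replicate 1 (adjusted *P* = 0.188), without either W6 library (0.124 and 0.101) with median-ratio scaling (0.0856), with all genes above 0 TPM (0.138) and with only the 4 libraries compared (0.121). The changes at W1, W2 and W12 were −0.46, −0.07 and −0.49 (limma, adjusted *P* = 0.443, 0.914 and 0.28). From W2 to W6 the change was 1.14, not called (adjusted *P* = 0.0543) but called in 3 of 13 alternatives, among them with genes averaging at least 5 TPM (0.049). *Etv4* was below *Etv5* at D0, at ratios of 0.294 and 0.191, and above it at W6, at 2.10 and 1.36.

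**Figure D3:**
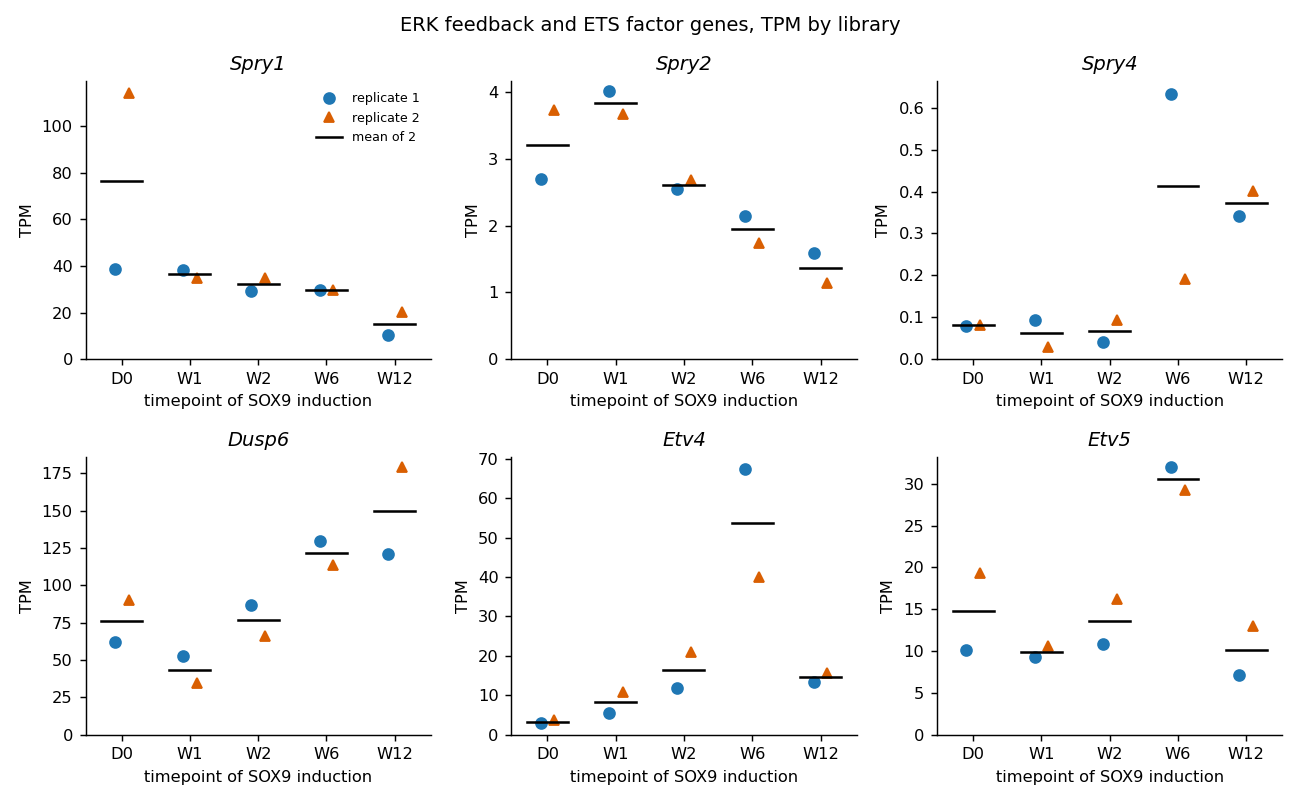
TPM of *Spry1*, *Spry2*, *Spry4*, *Dusp6*, *Etv4* and *Etv5* (linear axes from 0, scaled to each gene) in each of 10 libraries, with circles for replicate 1, triangles for replicate 2 and a line at the mean of 2. *Etv4* and *Etv5* peak at W6 (means 53.6 and 30.6 TPM), *Dusp6* is highest at W12 (mean 150 TPM) and *Spry1* and *Spry2* are lowest at W12 (means 15.3 and 1.37 TPM).

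Counted together, 2 of the 8 genes tested were called at W1 against D0 (*Fgfr1* higher and *Fgfr2* lower). Of all genes tested, 9.89% were called at W1, 5.79% higher and 4.10% lower. At W2, 2 of the 8 were higher and 2 lower, where 15.7% of all genes were called, 9.06% higher and 6.64% lower. At W6, 3 were higher and 2 lower, where 32.4% of all genes were called, 18.3% higher and 14.1% lower. At W12, 3 were higher and 4 lower, where 43.0% of all genes were called, 17.9% higher and 25.1% lower. None was called between W1 and W2 by limma, with 3 at an unadjusted *P* under 0.05, where 0.114% of all genes were called. From W2 to W6, 4 were called (16.3% of all genes), and from W6 to W12, 3, all lower (20.2%, with 13.5% lower). Against W1, 7 were called at W6 (22.9% of all genes) and 6 at W12 (44.4%). The median log2 changes of the 8 genes against D0 were −0.42, −0.14, 0.09 and −0.66 at W1, W2, W6 and W12, and those of all genes tested 0.09, 0.06, 0.08 and −0.08. All 8 passed the moderated F test over the timepoints, as did 57.5% of all genes. The comparisons with D0 share the D0 libraries.

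**Figure D4:**
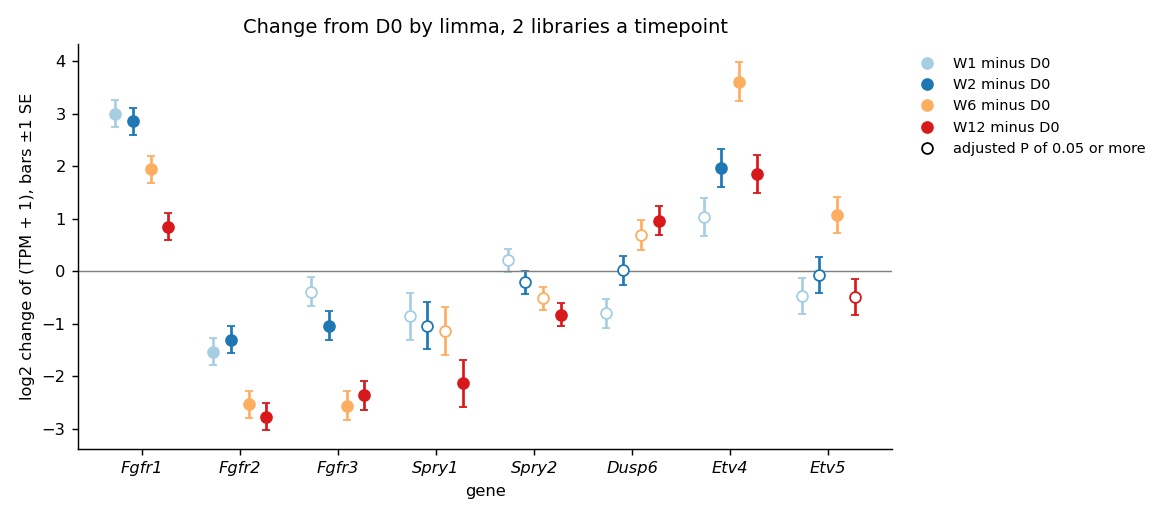
Log2 change of (TPM + 1) against D0 by limma for the 8 genes tested, with colours for W1, W2, W6 and W12, bars of ±1 SE, filled points for an adjusted *P* under 0.05 and open points for 0.05 or more. *Fgfr1* and *Etv4* lie above 0 at every timepoint and *Fgfr2*, *Fgfr3* and *Spry1* below.

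Few ligand genes were read in these cells. Of 22 FGF genes listed, 2 were tested. *Fgf1* reached the filter, with a mean of 1.51 TPM over the libraries, through its W6 and W12 values. The tests of its rise are therefore not independent of the filter. *Fgf1*, a secreted ligand for all FGF receptors, stood at 0.0867 to 0.99 TPM up to W2, 3.06 and 6.48 at W6, and 1.59 and 1.72 at W12. It rose by 2.09 at W6 (adjusted *P* = 0.0025) and by 1.04 at W12 (adjusted *P* = 0.034), and the W12 call was lost without any of its 4 libraries (0.0777 to 0.117) and with the replicate block (0.0502). *Fgf13*, whose protein stays inside the cell and binds sodium channels rather than FGF receptors, fell by 1.26 at W6 (adjusted *P* = 0.00975) and by 1.02 at W12 (adjusted *P* = 0.0164), where the call was lost without D0 replicate 1 (0.059), W12 replicate 1 (0.0936) or W12 replicate 2 (0.0519). *Fgf23*, a hormone made in bone, was listed at 0 in 8 libraries and had 0.737 and 3.78 TPM at W12, the libraries with the endothelial markers. Of the other receptors and co-receptors, only *Fgfrl1*, a receptor that lacks the kinase domain, was tested, and it was not called at any timepoint (largest change 1.28 at W1, adjusted *P* = 0.0541).

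The 22 genes of adaptors, RAS, RAF, MEK and ERK and of their regulators, among them *Cbl*, *Rasa1* and *Nf1*, were all tested. Counts over this list do not tell the direction of signalling. At W1, W2, W6 and W12, 1, 2, 5 and 12 were called, or 4.55%, 9.09%, 22.7% and 54.5%. Of all genes, 9.89%, 15.7%, 32.4% and 43.0% were called. At W12, 2 were higher and 10 lower, where 17.9% and 25.1% of all genes were. The 12 calls at W12 became 7 without D0 replicate 2, W12 replicate 1 or W12 replicate 2, 6 with only the 4 libraries compared and 2 where a log2 change of 1 or more in size was also required. The largest falls at W12 were of *Gab1*, a docking protein (by 1.68, adjusted *P* = 0.000613), *Cbl*, a ubiquitin ligase that takes receptors down (by 1.26, adjusted *P* = 0.00214), and *Sos1*, which loads RAS with GTP (by 0.99, adjusted *P* = 0.0203), the last lost without D0 replicate 2 (0.128), W12 replicate 1 (0.0936) or W12 replicate 2 (0.0764). The list's median change at W12 was −0.57, against −0.08 for all genes.

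Of 10 other feedback inhibitors listed, 6 were tested. At W1, W2, W6 and W12, 3, 4, 4 and 4 of the 6 were lower, where 4.10%, 6.64%, 14.1% and 25.1% of all genes were lower, and 1 was higher at W6 only. *Dusp5*, a nuclear ERK phosphatase, had 84.1 and 163 TPM at D0 and from 8.31 to 25.8 TPM later, and it fell by 2.43 at W12 (adjusted *P* = 0.00127). *Errfi1*, an inhibitor of the EGF receptor, had 238 and 481 TPM at D0 and 115 and 123 at W12, and it fell by 1.501 (adjusted *P* = 0.00594). *Spred2*, a Sprouty-related inhibitor of RAF activation, fell by 2.43 at W12 (adjusted *P* = 0.000104). *Dusp7*, another ERK phosphatase, had 236 and 496 TPM at D0, from 122 to 206 TPM at W1, W2 and W6, and 154 and 169 at W12. It fell by 1.08 at W12 (limma, adjusted *P* = 0.0278). The change was −0.547 without D0 replicate 2, −1.01 without W12 replicate 1 and −1.15 without W12 replicate 2, and the call was lost in each. *Spred1*, related to *Spred2*, was not called, with changes of 0.83 at W2 (adjusted *P* = 0.0585) and −0.62 at W12 (adjusted *P* = 0.0791). *Dusp9*, an ERK phosphatase, was the gene higher at W6 (by 1.47, adjusted *P* = 0.00951), at levels under 5 TPM. Among 8 tested genes of ERK output, 6 were called at W12 (75.0%, against 43.0% of all genes), with *Phlda1* (0.92, adjusted *P* = 0.0284) and *Ier3* (1.15, adjusted *P* = 0.00967) higher, and *Epha2*, *Fosl1*, *Egr1* and *Myc* lower and *Ccnd1* (0.01, adjusted *P* = 0.98) and *Epha4* (−0.65, adjusted *P* = 0.0995) not called. The *Phlda1* call was lost without D0 replicate 1 (0.129) or W12 replicate 2 (0.193), and that of *Ier3* without D0 replicate 2 (0.0547) or W12 replicate 2 (0.0746). *Myc* fell by 3.10 at W12 (limma, adjusted *P* = 0.00118). At W1, W2 and W6, 3, 3 and 4 of the 8 were already lower and 0 higher, where 4.10%, 6.64% and 14.1% of all genes were lower. Means at D0, W1, W2, W6 and W12 were 803, 59.4, 32.0, 69.6 and 128 TPM for *Fosl1* and 3316, 496, 582, 530 and 247 TPM for *Egr1*. The 10 immediate-early genes of the sum given above, which do not include the ERK output genes, were also lower at W12. Of 4 splicing genes that act on *Fgfr2* RNA, 2 were called at W12, both lower, where 43.0% of all genes were called and 25.1% were lower. *Esrp1* fell by 0.74 (adjusted *P* = 0.00922) and *Esrp2* by 0.98 (adjusted *P* = 0.0162) at W12, calls lost without W12 replicate 1 (0.0624) for *Esrp1* and without D0 replicate 2 (0.0856), W12 replicate 1 (0.0934) or W12 replicate 2 (0.0547) for *Esrp2*, and none was called at W1, W2 or W6 by limma, with 0 at an unadjusted *P* under 0.05.

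**Figure D5:**
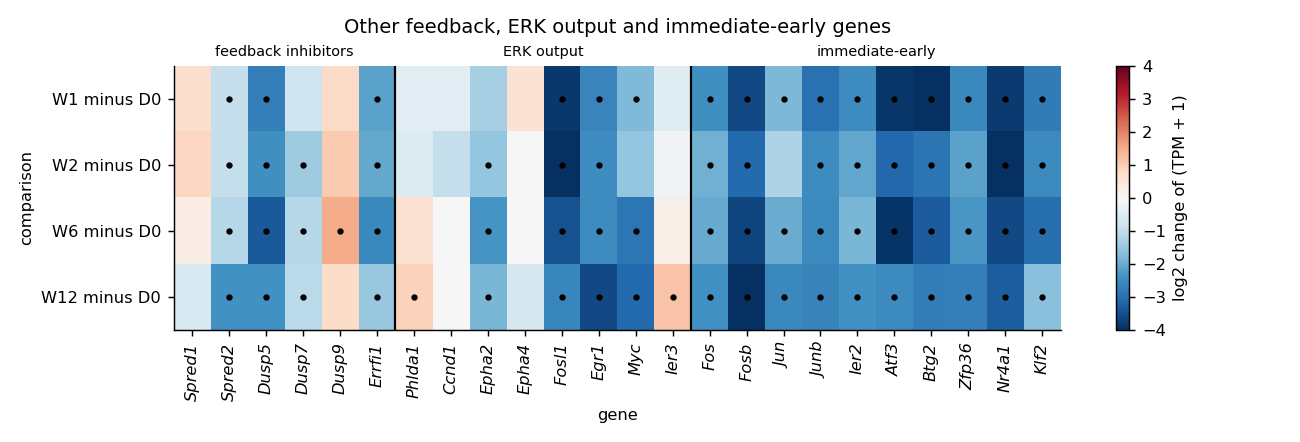
Colour map of log2 change of (TPM + 1) against D0 (rows W1, W2, W6 and W12, red higher and blue lower) for the other feedback inhibitors, ERK output genes and immediate-early genes tested, with dots where the adjusted *P* by limma is under 0.05. All 10 immediate-early genes are lower at W1, W6 and W12, as are *Dusp5*, *Errfi1* and *Spred2*.

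The genes whose log2(TPM + 1) ran most like each gene over the 10 libraries were looked up as a description. They were *Gm15270* (Pearson's r = 0.984) and *Esyt3* (0.984) for *Fgfr1*, *Xpc* (0.987) and *Chst15* (0.985) for *Fgfr2*, *Tbc1d16* (0.988) and *Cxcl14* (0.987) for *Fgfr3*, and *Stard5* (0.988) and *Tmem268* (0.974) for *Etv4*. *Chst15* lies within the annotated span of *Fgfr2* on the same strand. *Tspyl1* (0.972) and *Palld* (0.963) were nearest to *Spry1*, *Kdm5b* (0.984) and *Zfp109* (0.976) to *Spry2*, *Atp11b* (0.953) and *Ube2d3* (0.943) to *Dusp6*, and *Defb2* (0.942) and *Kifc5b* (0.932) to *Etv5*. Among the genes themselves, *Fgfr2* and *Fgfr3* had r = 0.901, *Fgfr3* and *Spry2* 0.89, and *Etv4* and *Etv5* 0.64. *Fgfr2* and *Etv4* had −0.76, *Fgfr3* and *Etv4* −0.80, and *Spry2* and *Dusp6* −0.84. *Fgfr1* had −0.24 with *Fgfr2* and −0.01 with *Fgfr3*. Other pairs are not listed. The libraries share 5 timepoints of 2, so these values carry few independent points.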

How the data were processed

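The authors sequenced 14 RNA libraries, of which 10 of the EpdSC time course were used. Their reads were trimmed with Skewer and quantified with Salmon 1.4.0 on GENCODE transcripts of GRCm38 with the transgene added, and Tximport 1.12.3 gave the deposited TPM per gene. Since TPM keep no read totals, depth and counting error are unknown. A table of the authors' own placode comparison (4 libraries) was not used.

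Genes averaging at least 1 TPM were tested on log2(TPM + 1) with limma 3.58.1 (R 4.3.3), fitting 5 timepoint means over 10 libraries, with eBayes and trend, and Benjamini-Hochberg adjustment over 13110 genes in each of 10 comparisons. This scale understates changes of low genes. A call is an adjusted *P* under 0.05. The script was tested on simulated data. The study's test on counts could not be run on TPM. Alternatives were the pseudocount (0.1), filters, scaling, eBayes without trend, only the libraries compared, a replicate block and leaving out each library.

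The genes, pathway lists and tests were chosen with earlier results of these data known. Named genes were all 9 genes, the tested genes of the smaller lists, up to 3 of the largest called rises and falls at W12 in the adaptor-to-ERK and splicing lists (the rises of the former are not reported here), and the 2 genes most alike each gene. Positions come from GENCODE M21 on GRCm38 and promoters from RefSeq. Replicate numbers do not pair libraries, which came from different mice.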

Additional observations from a re-analysis of the deposited data

How the results depend on the processing

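Of 712 alternative values for 63 single-gene results, 635 kept direction and side of the threshold, 61 were no longer called, 7 became called and 9 changed sign, and the cause was not tested. The sign changes were all of results that were not called: *Dusp6* at W2 against D0 (−0.0691 with median-ratio scaling, −0.0466 with quantile normalization, −0.24 to 0.28 without single libraries, negative without D0 replicate 1 and, at −0.17, without W2 replicate 1), *Fgfr3* at W1 (−0.88 to 0.11, positive without D0 replicate 2), *Etv5* at W2 (−0.51 to 0.37, positive without D0 replicate 2 and, at 0.20, without W2 replicate 1), *Spry1* from W2 to W6 (−0.22 to 0.0183, positive without W2 replicate 2) and *Dusp6* from W6 to W12 (−0.0031 to 0.55, negative without W12 replicate 2). With all genes above 0 TPM tested, the genes called were 1 at W1, 1 at W2, 0 from W2 to W6 and 1 from W6 to W12. With only the 4 libraries compared they were 1 at W1, 2 at W2 and 4 at W12, and 6 in the adaptor-to-ERK list. With an absolute log2 change of at least 1, 4 were called at W12 and 2 in that list. FGF ligand genes called at W12 were 0 where only genes averaging 5 TPM or more were tested, a filter that left no ligand to test, and 1 with quantile normalization.

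Without single libraries, the genes called ranged from 1 to 4 at W1, 1 to 5 at W2, 4 to 5 at W6, 4 to 6 at W12, 0 to 3 from W2 to W6 and from W6 to W12, and stayed at 0 from W1 to W2; those past the F test ranged from 6 to 8. The lists at W12 ranged from 0 to 1 (ligands), 7 to 12 (adaptors to ERK), 3 to 5 (other feedback) and 4 to 6 (ERK output), with 0 for the other receptors. With the replicate block, 1 ligand gene was called at W12, and the genes described here gave 2, 4, 5 and 7 calls at W1, W2, W6 and W12. Deviations of same-numbered libraries correlated at −0.11 for D0 with W1, −0.13 for D0 with W6 and −0.11 for W6 with W12, at 0.18 for W1 with W2, and between −0.07 and 0.09 for the other 6 pairs of timepoints. With crossed numbers, added after seeing the data, 2, 4 and 3 genes were called in these comparisons. Of 24 further calls named, 14 held without each library compared, a check also added then. Without the W12 libraries, 10 of 11 calls against D0 remained. The share of higher genes among all called was 58.6% at W1, 57.7% at W2, 56.5% at W6 and 33.0% from W6 to W12 with TPM, and 44.8%, 45.7%, 45.2% and 55.8% with median-ratio scaling. All genes had a median change of −0.16 from W6 to W12. Depth was not known, and 2 libraries a timepoint limit precision.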
